A study of Schizosaccharomyces pombe with 40 samples.

Results

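The fission yeast Schizosaccharomyces pombe was compared between cells lacking eaf1 and cells lacking ebp1, both in strain ED666, by setting the 3 polyA RNA libraries of the eaf1 deletion (eaf1Δ) directly against the 3 libraries of the ebp1 deletion (ebp1Δ). These 6 libraries were chosen by their labels, out of 40 samples in the series, of which 17 are RNA libraries. All 17 entered the minimum level and the estimate of spread. Beyond the libraries of eaf1Δ, ebp1Δ and their wild type, they are wild-type and ell1 deletion libraries in ED666 and in strain Pem2. Those further libraries are deeper, at 35337271 to 43374049 recovered reads. Of 7013 genes in the table, 6160 passed the minimum level and were tested. The eaf1Δ strain is h+ delta-eaf1::kanMX6 and the ebp1Δ strain is h+ delta-ebp1::kanMX6. Both also carry ade6-M210, ura4-D18 and leu1-32, as does the h+ ED666 wild type, whose 3 libraries are shown beside them. All were grown in rich YES medium with supplements at 32°C to mid log phase. Each deletion is a single strain. The labels do not say that its replicates are separate cultures, and a p-value here therefore reflects nothing but the variation among the libraries, part or all of which may be technical.

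ELL is an elongation factor that binds RNA polymerase II and raises its rate of RNA synthesis by suppressing pausing. EAF binds ELL and stimulates it, and in animals both are part of the super elongation complex together with a kinase that phosphorylates the polymerase. In the study, Ell1, Eaf1 and the further protein Ebp1 were examined as a simpler form of that complex in fission yeast. A direct comparison of eaf1Δ with ebp1Δ asks where the loss of one ELL partner leaves a transcript at another level than the loss of the other.

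The unit is scaled CPM, as deposited: whole reads of a gene times a constant of the library, summing to between 957761 and 1026110 in the 6 libraries. Recovered depth was 7268556 to 9193169 reads in eaf1Δ and 6906909 to 8113270 in ebp1Δ, and 3 reads, the limit that a count of 0 allows, corresponded to 0.335 to 0.429 scaled CPM. The 10 most abundant genes held 7.9 to 8.0% of reads in eaf1Δ and 5.9 to 6.5% in ebp1Δ. Wild-type replicate 3 stood apart from the other wild-type libraries: ght5, a glucose transporter, was at 948 scaled CPM there against 129 and 70.8 in replicates 1 and 2. That library is not in the difference itself but enters the estimate of spread. Transcripts of ura4, deleted in all of these strains, were at 0 reads in 8 of the 9 ED666 libraries and at 32 reads in eaf1Δ replicate 3. Marker genes of other cell states were detected in both deletions: 8 meiotic markers summed to 72.7 to 104 scaled CPM in eaf1Δ and 96.9 to 127 in ebp1Δ, and 8 mating markers to 127 to 148 and 125 to 130, with none at 0 in all 6 libraries. One meiotic marker, spo6, was called lower in eaf1Δ and no mating marker was called; their part in the other results was not tested.

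The deleted genes followed the labels. The ebp1 transcript (SPAC6G9.15c) was at 62.9, 67.4 and 60.9 scaled CPM in eaf1Δ, at 9.84, 10.2 and 8.28 in ebp1Δ, and at 61.2, 66.3 and 79.6 in wild type. The log2 difference between eaf1Δ and ebp1Δ was 2.63 with a standard error (SE) of 0.10 (limma, Benjamini-Hochberg adjusted p = 1.45e-08). The eaf1 transcript was at 22.3, 19.0 and 22 in eaf1Δ and at 52.5, 45.8 and 50.7 in ebp1Δ, with 56.8, 48.5 and 43.4 in wild type. It fell by 1.2 on the log2 scale (SE 0.09, limma adjusted p = 2.39e-05), so that reads assigned to eaf1 remained in the eaf1Δ libraries. Each partner's transcript overlapped its wild-type range in the other's deletion. The transcript of ell1 was at 83.7, 83.6 and 83.7 in eaf1Δ and at 87.2, 80.9 and 85.6 in ebp1Δ, a log2 difference of -0.01 that did not pass. Per kilobase, wild-type cells held similar levels of all 3 transcripts, 33.0 RPKM for ebp1, 31.8 for eaf1 and 35.4 for ell1. Of the 3 genes on each side of either deleted gene, none that was tested passed, and not all of those beside eaf1 were tested. Beside eaf1, SPNCRNA.1236, SPCC1223.09 and dfr1 did not overlap between the groups (24.1% of all genes). Their log2 differences were 0.50, 0.34 and 0.36 (limma adjusted p = 0.0663, 0.444 and 0.231), while ptc2 was at -0.18 with overlap. The markers ade6, with a log2 difference of 0.19, and leu1, with 0.12, did not pass either. The gene puf4 overlaps ebp1 on the other strand in the reference, and its log2 difference was -0.01.

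Across the genome most transcripts were alike in both deletions, and those that differed were mostly higher in eaf1Δ. The limma model called 183 of 6160 genes, 2.97%, at an adjusted p of 0.05, of which 145 were higher in eaf1Δ (2.35%) and 38 lower (0.617%). Of these, 42 higher and 6 lower genes differed by at least 2-fold. In all 183 the libraries of the groups did not overlap, which was also true of 1486 genes, 24.1%, of all tested. The median log2 difference of all genes was -0.0076. Higher genes made up 79.2% of calls as scaled by the authors and 67.7% after quantile normalization. Without wild-type replicate 3 in the estimate of spread there were 275 higher and 127 lower calls. Leaving out ebp1Δ replicate 2 or 3 or eaf1Δ replicate 1 lowered the higher calls to 93, 91 and 91, and the lower calls fell to 12 to 21 without ebp1Δ replicate 2 or 3 or any 1 eaf1Δ library.

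**Figure D1:**
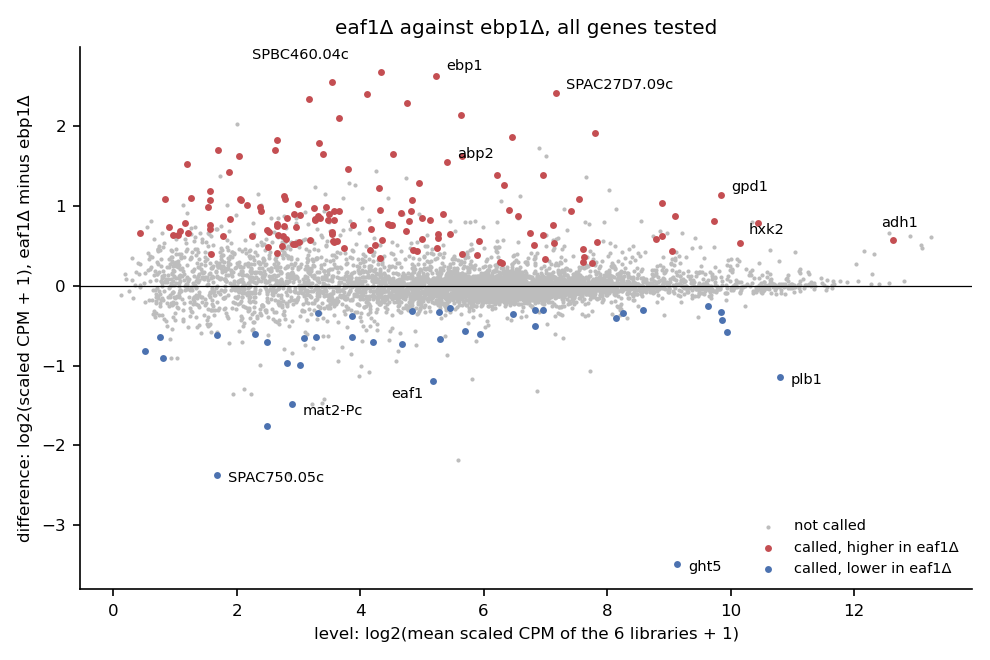
Log2 difference between eaf1Δ and ebp1Δ (y axis, log2(scaled CPM + 1)) against the mean level of each of 6160 genes (x axis, log2 scale), with the 183 called genes coloured by direction. The 145 higher genes lie above 0 and reach log2 2.69, and the largest fall is ght5 at -3.49.

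The wild type lay nearer to eaf1Δ than to ebp1Δ for most of the higher genes. Of the 145, the level of wild-type replicate 1 was nearer to the eaf1Δ mean in 108, replicate 2 in 105 and replicate 3 in 96. Of the 38 lower genes, replicates 1 and 2 were each nearer to eaf1Δ in 25, and replicate 3 in 19. These counts describe the side on which each library falls and were not tested. The same share over all genes tested was not counted, so the called genes cannot be set against it.

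Among the genes that were higher in eaf1Δ, SPBC460.04c and SPBC460.05, whose identifiers were not found in the reference, had some of the largest differences. SPBC460.04c was at 34.2, 35.7 and 31.5 scaled CPM in eaf1Δ against 5.54, 2.43 and 6 in ebp1Δ, 7.26-fold higher, with 46.3, 42.5 and 50 in wild type. The log2 difference was 2.69 (SE 0.34, limma adjusted p = 9.94e-04). Against the same wild-type libraries it was at -0.44 in eaf1Δ (adjusted p = 0.586) and at -3.13 in ebp1Δ (adjusted p = 2.23e-04), so the gap lay with low levels in ebp1Δ. SPBC460.05 was at 34.2, 46.8 and 50.4 in eaf1Δ and at 4.67, 7.69 and 13.7 in ebp1Δ, a log2 difference of 2.30 (SE 0.35, limma adjusted p = 0.00358). A further unmatched gene, SPBC460.01c, was called with a log2 difference of 0.65.

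Next in size were genes of varied roles. SPBC23G7.10c, annotated as an NADH-dependent flavin oxidoreductase, was at 28.6, 13.5 and 14.8 in eaf1Δ, at 0.984, 2.97 and 3.29 in ebp1Δ and at 8.35, 5.35 and 5.65 in wild type, a log2 difference of 2.55. SPAC27D7.09c, of the But2 family, was at 299, 255 and 165 against 59.5, 24.8 and 51.9, a log2 difference of 2.42. In both, the lowest eaf1Δ library was well above the highest ebp1Δ library, and for SPBC23G7.10c every wild-type library lay between the groups. The arylsulfatase gene SPBPB10D8.02c was at 76.0, 84.3 and 77.6 in eaf1Δ and at 78.7, 79.3 and 93.8 in wild type, but at 16.4, 12.7 and 24.4 in ebp1Δ, a log2 difference of 2.14 (SE 0.29, limma adjusted p = 0.00156). Its neighbour SPBPB10D8.01, a cysteine transporter, had a log2 difference of 1.63 and the neighbouring pseudogene SPBPB10D8.03 one of 1.79. SPAC25B8.12c, a nucleotide-sugar phosphatase, was at 278, 311 and 469 against 90.2, 102 and 80.4, a log2 difference of 1.91 (SE 0.22, limma adjusted p = 4.5e-04).

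**Figure D2:**
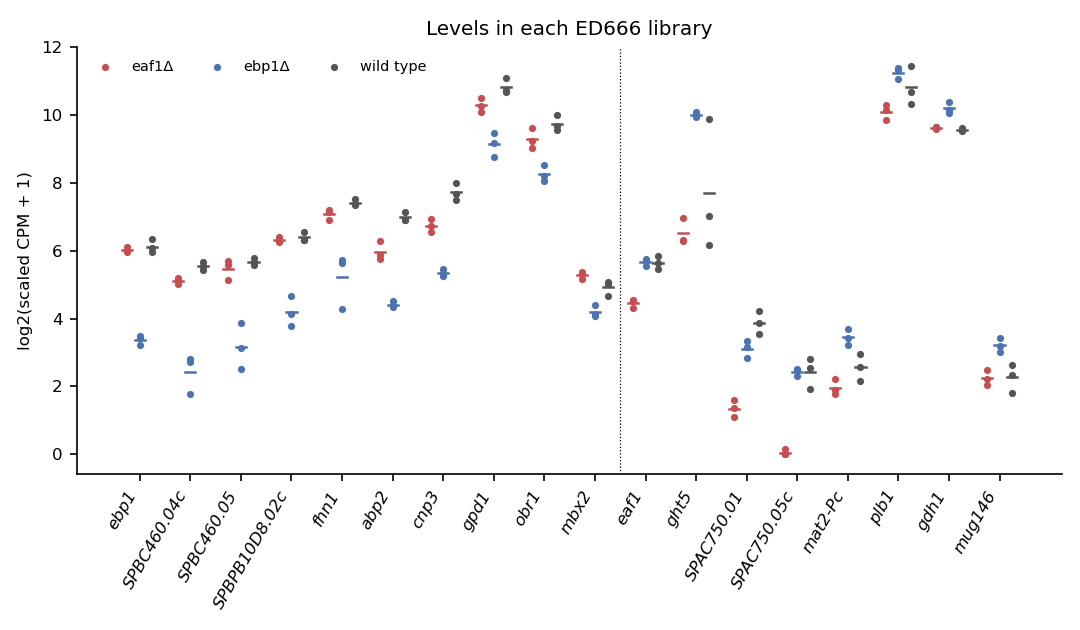
Level of 18 genes named in the text in each library of eaf1Δ, ebp1Δ and wild type (log2(scaled CPM + 1); dots are libraries, bars group means). Each gene's 3 eaf1Δ dots stand apart from its 3 ebp1Δ dots, and wild-type replicate 3 leaves the other wild-type dots for ght5.

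The neighbouring genes abp2 and cnp3 gave some of the tightest differences. The gene abp2, encoding a protein that binds replication origins, was at 77.7, 57.8 and 52.5 in eaf1Δ and at 19.9, 21.7 and 19.4 in ebp1Δ, with 119, 119 and 141 in wild type. The difference on the log2 scale was 1.56 (SE 0.12, limma adjusted p = 2.29e-05). The gene cnp3, encoding a centromere protein, was at 122, 105 and 93.4 against 39.5, 37.5 and 42.7, with 179, 202 and 257 in wild type, a log2 difference of 1.39 (SE 0.14, limma adjusted p = 1.93e-04). Both stood between ebp1Δ and wild type in eaf1Δ: against the shared wild type, abp2 was at -1.01 in eaf1Δ (adjusted p = 0.00179) and at -2.57 in ebp1Δ (adjusted p = 7.99e-08), and cnp3 at -0.98 (adjusted p = 0.0044) and -2.37 (adjusted p = 8.26e-07). The noncoding RNA SPNCRNA.1673, which lies between them in the reference, was called as well with a log2 difference of 1.83, at 11, 7.81 and 7.53 against 2.58, 2.29 and 0.714.

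Eisosomes are furrows of the yeast plasma membrane held by a coat of Pil1. The genes fhn1, pil1 and eis1 for eisosome proteins, grouped after their values were seen, were higher in eaf1Δ. The gene fhn1 was at 146, 139 and 120 in eaf1Δ, at 52.3, 18.3 and 48.6 in ebp1Δ and at 182, 163 and 164 in wild type, a log2 difference of 1.87 (SE 0.29, limma adjusted p = 0.00418). The coat gene pil1 was at 1068, 1063 and 1122 against 639, 545 and 667, a log2 difference of 0.82 (SE 0.10, limma adjusted p = 9.05e-04). The gene eis1 was at 238, 229 and 207 against 168, 141 and 182, a log2 difference of 0.46 (limma adjusted p = 0.0205), a call lost without ebp1Δ replicate 2 or eaf1Δ replicate 1 or 2.

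Genes of the core environmental stress response, which fission yeast induces through the kinase Sty1, had mostly positive differences, but few passed. Of 25 tested, 2 were called higher and none lower, against 2.35% and 0.617% of all genes, 18 differences were positive, and the median was 0.207 against -0.0076 for all genes. Library by library the list did not separate the groups: its median level relative to the mean of the 6 libraries was 0.34, -0.048 and -0.032 in eaf1Δ and 0.147, -0.375 and -0.137 in ebp1Δ on the log2 scale. Without wild-type replicate 3 there were 2 higher and 3 lower calls, and with the 6 deletion libraries alone 2 and 1. The gene gpd1, encoding the glycerol-3-phosphate dehydrogenase of glycerol synthesis, was at 1446, 1234 and 1088 in eaf1Δ against 715, 433 and 580 in ebp1Δ, with 2169, 1696 and 1644 in wild type. Its log2 difference was 1.14 (SE 0.18, limma adjusted p = 0.00385). The quinone dehydrogenase gene obr1 was at 792, 604 and 516 against 366, 292 and 263, 2.1-fold higher (limma adjusted p = 0.00624). The catalase gene ctt1 had a log2 difference of 1.13 at an adjusted p of 0.0787, and tps1, for trehalose synthesis, 0.69 at 0.204 (limma). Outside that list, the stress transcription factor gene atf1 was called at 125, 131 and 136 against 94.4, 84.0 and 96.0, a log2 difference of 0.51 (limma adjusted p = 0.0072). So were pyp1, for a tyrosine phosphatase acting on Sty1, with 0.48, and hsr1, for a transcription factor of the stress response, with 0.65, calls that were lost when any of 5 and any of 4 of the 6 libraries was taken out alone. All 21 heat shock chaperone genes had positive differences, of median 0.157, yet none was called, the groups did not overlap in 4 (24.1% of all genes), and 4 turned negative when each library was rescaled to a common total. The lowest library was ebp1Δ replicate 2, with a list median of -0.369 on the same scale, while ebp1Δ replicates 1 and 3, at 0.066 and 0.005, lay near the eaf1Δ libraries at 0.154, 0.097 and 0.023. The smallest p among them belonged to hsp20 (SPCC338.06c), with a log2 difference of 0.37 at an adjusted p of 0.203 (limma).

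One glucose transporter and some glycolytic genes were called between the deletions, in opposite directions. The gene ght5, encoding the high-affinity glucose transporter that fission yeast needs when glucose is scarce, was at 123, 77.9 and 77.0 in eaf1Δ against 1089, 975 and 1031 in ebp1Δ. Its log2 difference of -3.49 (SE 0.67, limma adjusted p = 0.0122) was the largest of any called gene. In wild type ght5 was at 129 and 70.8 in replicates 1 and 2, like eaf1Δ, and at 948 in replicate 3, like ebp1Δ. The call was lost without ebp1Δ replicate 3 or eaf1Δ replicate 2 or 3, and with the 9 ED666 libraries alone, the highest adjusted p being 0.0691.

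No other hexose transporter was called. The transporter gene ght1 was at 6, 4.13 and 4.38 in eaf1Δ and at 15.7, 13.1 and 14.6 in ebp1Δ, with 22.3 in wild-type replicate 3 against 5.92 and 3.72 in the others. The levels of ght3 and ght4 also did not overlap between the deletions and were likewise highest in wild-type replicate 3. Their log2 differences, -1.48 for ght3 and -0.86 for ght4, missed the threshold with adjusted p of 0.136 and 0.456 (limma). The gene ght8 went the other way, at 902, 885 and 741 against 605, 579 and 613, with an adjusted p of 0.229 (limma). In the list of 17 hexose uptake and glucose repression genes, 1 was called lower, none higher, against 0.617% and 2.35% of all genes, and 4 differences were positive. The counts depended on the libraries in the fit: 5 were lower without wild-type replicate 3, 4 lower and 2 higher with the 6 deletion libraries alone, and none in either direction with the 9 ED666 libraries.

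Of 19 genes of glycolysis and fermentation, 4 were called higher in eaf1Δ and 1 lower, against 2.35% and 0.617% of all genes, and in 16 the groups did not overlap, as in 24.1% of all genes. The median log2 difference was 0.44, and 0.183 after quantile normalization. The hexokinase gene hxk2 was at 1358, 1347 and 1350 in eaf1Δ and at 966, 879 and 942 in ebp1Δ, with 1318, 1320 and 1200 in wild type. This is a log2 difference of 0.54 (SE 0.06, limma adjusted p = 3.8e-04), and the eaf1Δ libraries lay close together. The phosphofructokinase gene pfk1 was at 1676, 1829 and 1800 against 1023, 1001 and 1047, with 1686, 1582 and 994 in wild type, a log2 difference of 0.79 (SE 0.16, limma adjusted p = 0.0173). The alcohol dehydrogenase gene adh1 was at 7461, 7410 and 7921 against 5260, 4890 and 5100, a log2 difference of 0.58 (limma adjusted p = 0.0443). The enolase gene eno102 was at 16.6, 11.1 and 14.4 against 2.21, 0.809 and 3.29, a log2 difference of 2.34 (limma adjusted p = 0.0431). The one lower gene, the pyruvate decarboxylase gene pdc201, was low throughout, at 7.53, 6.14 and 6.07 against 10.3, 9.98 and 12.3, a log2 difference of -0.65 (limma adjusted p = 0.0147).

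The abundant enzymes fba1, tdh1, gpm1, eno101 and pyk1 did not overlap between the deletions but were not called. For example gpm1, phosphoglycerate mutase, was at 7210, 7556 and 7382 against 4891, 4358 and 4750, with 5302 in wild-type replicate 3 and 7547 and 7555 in the others (log2 difference 0.66, limma adjusted p = 0.071). Without wild-type replicate 3 in the estimate of spread, 10 of the 19 were called higher and 2 lower. The 9 ED666 libraries alone gave 2 and 0. The calls of eno102, pfk1 and adh1 were lost when any 1 of the 6 libraries was left out, with highest adjusted p of 0.171 for eno102. The call of pdc201 was lost without ebp1Δ replicate 3 or eaf1Δ replicate 2 or 3.

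**Figure D3:**
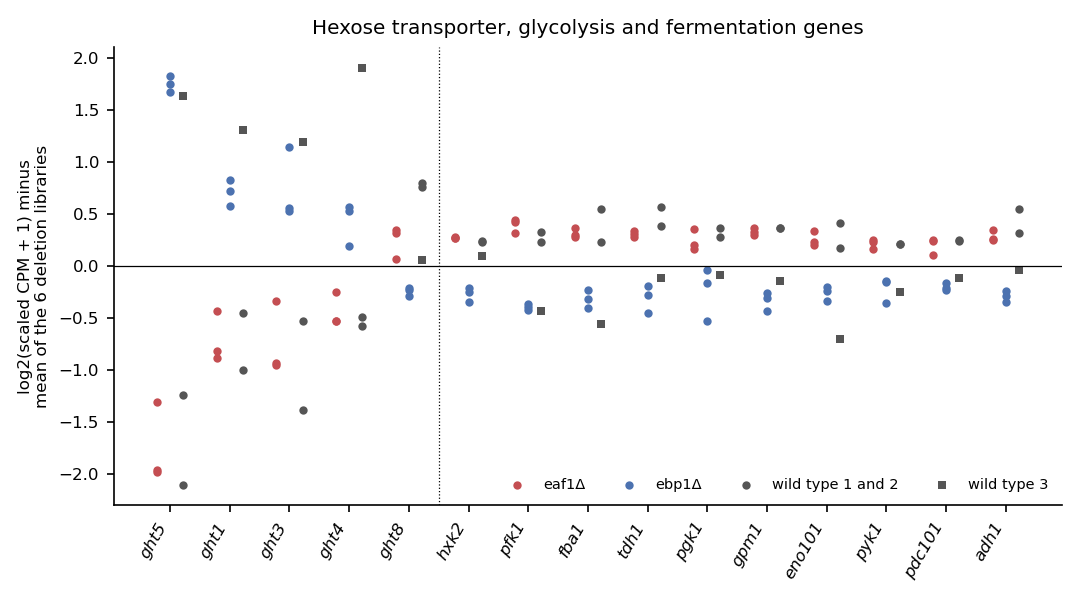
Level of 5 hexose transporter genes and 10 genes of glycolysis and fermentation in each library, as log2 relative to the mean of the 6 deletion libraries, with wild-type replicate 3 drawn as a square. In the transporters ght5, ght1, ght3 and ght4 the ebp1Δ dots lie above the eaf1Δ dots, in glycolysis mostly below, and the square lies with ebp1Δ for ght5 and pfk1.

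Differences in respiratory genes were small and mostly negative, and few were called. Of 45 tested members of the respiratory chain, ATP synthase and citric acid cycle, 4 were called lower and none higher, against 0.617% and 2.35% of all genes; 41 differences were negative, and the median was -0.248 against -0.0076. In 34 of the 45 the groups did not overlap, as in 24.1% of all genes. Across 4 other scalings the median stayed between -0.303 and -0.241. Cytochrome c, cyc1, was at 786, 820 and 838 in eaf1Δ and at 1004, 1055 and 1021 in ebp1Δ, with 819, 800 and 722 in wild type, a log2 difference of -0.33 (SE 0.08, limma adjusted p = 0.0308). The cytochrome oxidase gene cox5 was at 254, 282 and 268 against 341, 329 and 348, with 286, 317 and 298 in wild type, a log2 difference of -0.34 (limma adjusted p = 0.0355). The ATP synthase gene atp1 was at 704, 749 and 707 against 875, 842 and 861, a log2 difference of -0.26 (limma adjusted p = 0.0361). Malate dehydrogenase, mdh1, was at 246, 246 and 237 against 340, 290 and 336, with 228, 242 and 272 in wild type, a log2 difference of -0.40 (limma adjusted p = 0.0241).

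Divided by complex, a split made after the values were seen, the negative differences lay mainly in the chain from cytochrome b-c1 onward. Of the listed genes, 1 was called in each of complex III with cytochrome c, complex IV and ATP synthase. The gene atp19, which the list does not hold, was called too, a call lost when any of 5 of the 6 libraries was taken out alone. All 10 tested genes of complex III and cytochrome c had negative differences with groups that did not overlap (24.1% of all genes), of median -0.353. In complex IV all 9 were negative, 8 without overlap, with a median of -0.278. In ATP synthase all 12 listed genes were negative, 10 without overlap, with a median of -0.24. Complex II, succinate dehydrogenase, differed little: its 4 genes had a median of -0.01 and all overlapped. Of 8 other citric acid cycle genes 5 were negative with a median of -0.047, and idh2, a subunit of isocitrate dehydrogenase, was at 262, 252 and 234 against 219, 183 and 204. The gene anc1, which encodes the mitochondrial carrier that exchanges ADP for ATP and is not in the list, was called at 756, 797 and 821 against 1038, 1091 and 1054, a log2 difference of -0.42 (limma adjusted p = 0.0114). The calls of cyc1, cox5, atp1 and mdh1 were each lost when any of at least 5 of the 6 libraries was taken out alone, and that of anc1 without ebp1Δ replicate 2 or eaf1Δ replicate 1. The fit to the 6 deletion libraries alone called 14 lower, and the fit without wild-type replicate 3 called 8 lower and 1 higher.

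**Figure D4:**
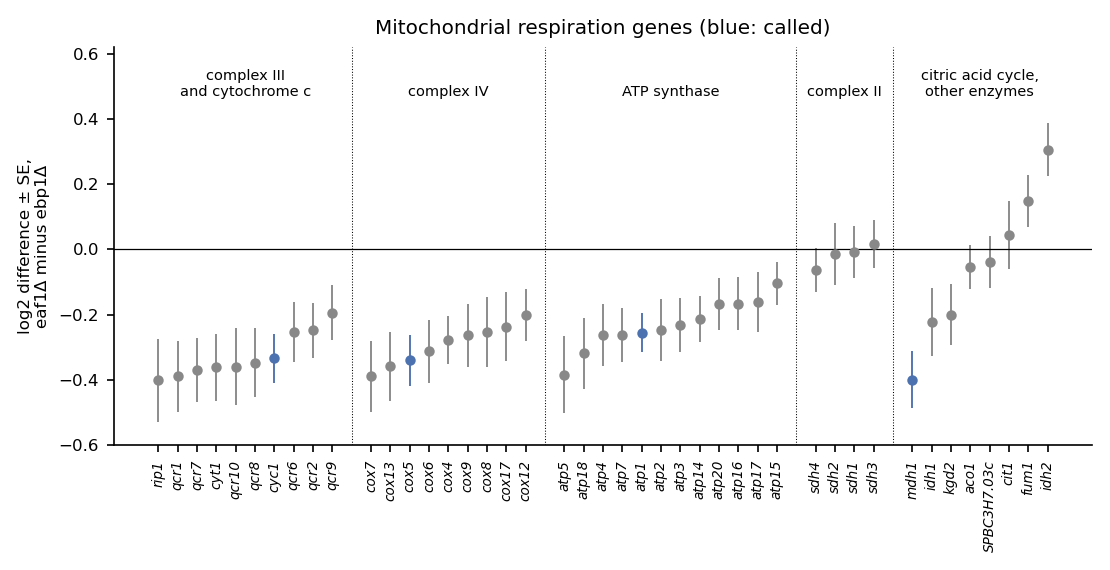
Log2 difference between eaf1Δ and ebp1Δ with its SE (y axis, log2(scaled CPM + 1) scale) for 43 respiratory genes grouped by complex (x axis). Genes of complex III with cytochrome c, complex IV and ATP synthase lie below 0, with medians of -0.353, -0.278 and -0.24, while complex II lies near 0.

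Other metabolic genes lower in eaf1Δ included plb1, a phospholipase B, at 1254, 1132 and 929 in eaf1Δ against 2660, 2118 and 2559 in ebp1Δ, with 1628, 1293 and 2766 in wild type. Its log2 difference was -1.15 (SE 0.23, limma adjusted p = 0.0169), and its call was lost without ebp1Δ replicate 1 or 3 or eaf1Δ replicate 2 or 3. The gene gdh1, for the glutamate dehydrogenase that assimilates ammonium, was at 762, 799 and 803 against 1142, 1073 and 1329, with 751, 789 and 739 in wild type. It fell by 0.58 on the log2 scale (SE 0.12, limma adjusted p = 0.0169), a call lost without ebp1Δ replicate 3 or any 1 eaf1Δ library. Also lower were SPAC1B3.04c, annotated as the GTPase GUF1, at 17, 16.9 and 20.5 against 26.0, 36.7 and 29.9, and SPAC1002.01, at 5.44, 5.13 and 6.18 against 9.84, 9.57 and 8.71, calls lost when any of at least 4 of the 6 libraries was taken out alone. The gene gdh1 was the only called gene of 56 in amino acid synthesis, against 0.617% of all genes called lower and 2.35% higher. Of the 56, 47 had positive differences, or 39 with libraries rescaled to a common total. The list thus leaned higher in eaf1Δ, with a median log2 difference of 0.15, or 0.095 when rescaled. In 33 of the 56 the groups did not overlap, against 24.1% of all genes. Without wild-type replicate 3, 11 members were called higher and 1 lower, and with the 6 deletion libraries alone 10 and 1.

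In the membrane and cell surface groups, 2 of 25 sterol synthesis genes were higher in eaf1Δ, against 2.35% of all genes. The squalene monooxygenase gene erg1 was at 268, 281 and 265 against 192, 178 and 188, a log2 difference of 0.54 (SE 0.07, limma adjusted p = 0.00128). The C-5 sterol desaturase gene erg31 was at 245, 239 and 184 against 146, 94.9 and 110, a log2 difference of 0.93 (limma adjusted p = 0.0104). No other sterol gene was called and the median of the list was 0.004; erg32, the other desaturase gene, had a log2 difference of -0.43 with overlapping groups. Of 14 genes for flocculins, which bind cells to each other, and their regulators, 3 were higher and none lower, against 2.35% and 0.617% of all genes; 8 of the 14 differences were positive, or 7 after quantile normalization. The regulator mbx2, a MADS-box transcription factor that induces flocculin genes, was at 34.6, 38.4 and 40.8 against 20.1, 16.6 and 16, with 32.6, 31.5 and 24.3 in wild type. This gave a log2 difference of 1.07 (SE 0.12, limma adjusted p = 3.9e-04). Of the flocculin genes, pfl9 had a log2 difference of 0.57 (limma adjusted p = 0.00792) and pfl7 one of 0.45 (limma adjusted p = 0.0212). The gene pfl3 was at 165, 240 and 177 against 56.0, 56.2 and 72.7, with no overlap, but at an adjusted p of 0.191 (limma). The calls of erg31 and pfl7 were each lost when any of 4 of the 6 libraries was taken out alone, and those of pfl7 and pfl9 in the fit to the 6 libraries alone.

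Phosphate acquisition genes, which fission yeast represses when phosphate is ample, were 1 higher and none lower of 9, against 2.35% and 0.617% of all genes. When wild-type replicate 3 was left out, 3 were higher and 1 lower, and with the 6 deletion libraries alone 3 and 0. The transporter gene pho841 (SPBC1683.01) was at 196, 167 and 159 against 113, 86.0 and 107, a log2 difference of 0.77 (limma adjusted p = 0.0403), and lost its call without any 1 of the 6 libraries. The acid phosphatase gene pho1 was at 279, 318 and 273 against 89.3, 124 and 125, with 627, 564 and 219 in wild type. The transporter gene pho84 was at 312, 419 and 365 against 141, 166 and 167, with 572, 634 and 827 in wild type. Neither overlapped and neither was called, with adjusted p of 0.101 for pho1 and 0.0519 for pho84 (limma).

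Near the chromosome ends the direction was mixed. Of 61 subtelomeric genes listed, 55 are in the table and 31 were tested. Of these, 2 were higher and 3 lower in eaf1Δ, against 2.35% and 0.617% of all genes. In 16 of the 31 the groups did not overlap, as in 24.1% of all genes. SPAC750.05c, a predicted transmembrane protein, was at 0, 0.112 and 0 scaled CPM in eaf1Δ against 4.55, 3.91 and 4.71 in ebp1Δ, with 6.07, 2.83 and 4.80 in wild type. That is 1 read against 99, a ratio of 114 with a 95% exact counting interval of 20 to 4556, and a log2 difference of -2.38 (SE 0.17, limma adjusted p = 1.22e-05). SPAC750.01, of the aldo/keto reductase family, was at 1.12, 1.56 and 2.02 against 7.87, 9.04 and 6.14, with 17.5, 13.7 and 10.7 in wild type, a log2 difference of -1.76 (SE 0.24, limma adjusted p = 0.00128). SPAC750.06c was called lower too, on 1 read against 19, a call lost when any of 4 libraries was taken out alone. The telomere-linked helicase gene tlh2 went the other way, at 9.35, 6.36 and 9.33 against 3.32, 3.37 and 3, with 3.19, 2.68 and 2.82 in wild type, a log2 difference of 1.13 (limma adjusted p = 0.00254). SPCC569.03 was also higher, with 0.85. Many of these genes have near-identical copies, and no source used here says how reads were shared among copies, so their values are uncertain.

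Among genes of the sexual cycle, mat2-Pc of the silent mating-type cassette was at 3.63, 2.46 and 2.70 in eaf1Δ against 8.37, 12 and 9.71 in ebp1Δ, with 3.49, 4.91 and 6.78 in wild type. The log2 difference was -1.49 (SE 0.19, limma adjusted p = 0.00108). This was the only called gene of 28 in mating, where 0.617% of all genes were called lower. Reads of mat2-Pc may be shared with the copy at the expressed locus. Of 42 meiosis genes, 2 were lower and none higher, against 0.617% and 2.35% of all genes. Without wild-type replicate 3, 5 were lower, against 127 of all 6160 genes. The gene spo6, whose product works with a kinase in the second meiotic division, was at 10.2, 10.9 and 10.1 against 17.5, 16.2 and 16.9, and mug146 at 3.63, 3.13 and 4.61 against 7.01, 8.09 and 9.86 (limma adjusted p = 0.0172 for each). Both calls were lost when any of at least 4 of the 6 libraries was taken out alone. Of 11 histone genes 1 was called lower and none higher, against 0.617% and 2.35% of all genes. It was hhf2, for histone H4, at 332, 358 and 336 against 424, 412 and 430 (log2 difference -0.30, limma adjusted p = 0.0321). It has near-identical copies, and its call was lost without any 1 of the 6 libraries.

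Genes of the lists for RNA polymerase II and its elongation factors were not called. None of 12 RNA polymerase II subunit genes was called, with a median log2 difference of -0.038, and none of 22 other elongation factor genes, with a median of -0.026. Their smallest p belonged to rpb7 (log2 difference -0.09, limma adjusted p = 0.497) and spt16 (-0.14, limma adjusted p = 0.281). Outside these lists mcs6, the kinase of TFIIH that phosphorylates the polymerase, was called lower at 104, 103 and 96.3 against 122, 121 and 134, a log2 difference of -0.31, a call lost without any 1 of the 6 libraries. No gene was called among 141 ribosomal proteins, with a median of -0.011, or 85 ribosome biogenesis genes, with a median of -0.014. Nor was any called among 33 genes of RNAi, heterochromatin and exosome adaptors, 32 of the proteasome, 15 of iron, 7 of copper, 10 of thiamine and 15 of nitrogen starvation. The same held for 13 genes of cell separation, 22 G1/S genes and 12 of purine synthesis. Without wild-type replicate 3, 2 iron genes and 1 gene each of thiamine, nitrogen starvation and ribosomal proteins were called lower, and 1 each of the RNAi and proteasome lists higher. With the 6 deletion libraries alone 1 iron and 1 nitrogen starvation gene were called lower.

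Noncoding transcripts took a larger share of the calls than of the genes tested. Of 568 antisense RNAs 36 were higher in eaf1Δ, 6.34%, and 5 lower, 0.88%, and of 537 other noncoding RNAs 42 were higher, 7.82%, and 2 lower, 0.372%. Of 4963 coding genes 60 were higher, 1.21%, and 30 lower, 0.604%. Leaving out wild-type replicate 3 gave 59 higher and 12 lower antisense RNAs, 65 and 16 other noncoding RNAs and 143 and 98 coding genes. The noncoding RNA SPNCRNA.1319, for example, was at 19.1, 21.0 and 18.5 in eaf1Δ against 3.44, 3.91 and 4.00 in ebp1Δ, with 19.7, 20.7 and 4.24 in wild type, a log2 difference of 2.1 that was not called in the 9 ED666 libraries alone. The median log2 difference was -0.016 in coding genes. In other noncoding RNAs it was 0.107 as scaled by the authors and 0.029 after quantile normalization. Relative to the mean of the 6 libraries, the median level of that class was 0.035, 0.009 and 0.16 in eaf1Δ and -0.093, -0.021 and -0.077 in ebp1Δ. In antisense RNAs the median log2 difference was 0.061 as scaled by the authors but -0.016 after quantile normalization. The direction of the antisense class as a whole thus depends on the scaling. No source used here says whether counting used strand, and without it the reads of a gene and of its antisense partner cannot be told apart.

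**Figure D5:**
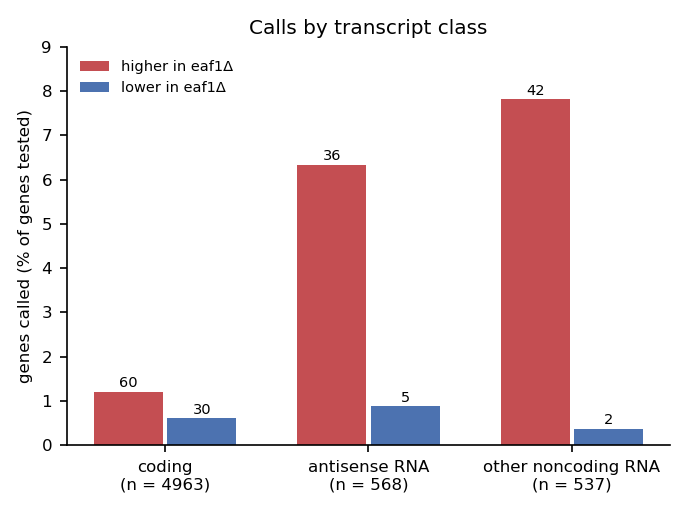
Percent of tested genes called higher or lower in eaf1Δ than in ebp1Δ by class of transcript (bars from 0). Antisense and other noncoding RNAs were called higher in 6.34% and 7.82%, coding genes in 1.21%.

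Among the antisense RNAs, cph1-antisense-1 had the largest difference, at 35.6, 25.4 and 23.5 in eaf1Δ against 5.17, 3.24 and 5.14 in ebp1Δ, with 10.8, 8.77 and 36.4 in wild type. Its log2 difference was 2.40, while that of its sense partner cph1 was 0.30 and was not called (limma adjusted p = 0.0807). SPCC777.06c-antisense-1 was at 19.8, 19.2 and 19.6 against 7.14, 5.80 and 6.43, with 5.62, 6.99 and 5.79 in wild type, so that eaf1Δ alone stood high (log2 difference 1.46, limma adjusted p = 0.00199). The RNA end4-antisense-1 was at 10.2, 7.14 and 7.98 against 2.71, 1.75 and 1.29, with 11.2, 12 and 7.34 in wild type, so that ebp1Δ stood low (log2 difference 1.71, limma adjusted p = 5.52e-04). Of the 36 higher antisense RNAs 34 had a tested sense partner. One partner, mug124, was called, higher with a log2 difference of 0.77, and 13 of the 34 were positive, with a median of -0.02. In the other direction gcv1-antisense-1 was at 5.44, 4.13 and 3.82 against 9.35, 10.7 and 9.28, a log2 difference of -0.99. The RNAs mok13-antisense-1, rhp16-antisense-1 and ayr1-antisense-1, were lower by 0.71, 0.70 and 0.67, calls that were lost when any of at least 5 of the 6 libraries was taken out alone.

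The series also holds an ell1 deletion in ED666 with wild-type libraries of its own, which share no library with the 6 compared here. Both comparisons come from 1 fit that gives each gene a shared estimate of spread. A gene with a small spread is thus more easily called in both, and the 2 sets of calls are not independent. In that set 25 genes, 0.406%, were called higher in ell1Δ. Of these, 10 were also called higher in eaf1Δ than in ebp1Δ. That is 40% of the 25, against 2.35% of all genes, and 6.9% of the 145, against 0.406% of all genes. The 10 were tlh2 and 9 antisense RNAs, among them SPCC777.06c-antisense-1, atg1801-antisense-1 and pkl1-antisense-1. Of these pkl1-antisense-1 lost its call between the deletions without ebp1Δ replicate 2 or eaf1Δ replicate 1 or 2. SPCC777.06c-antisense-1 changed by a log2 of 1.99 in ell1Δ and tlh2 by 1.25. Of the 36 higher antisense RNAs 31 had a positive change in ell1Δ, with a median of 0.43, against 49.6% of all genes and a median of -0.001. Antisense RNAs made up 18 of the 25 genes called higher in ell1Δ. The share of positive changes among all antisense RNAs tested was not counted, so a trait of the class cannot be told from one of the 36. Of the 10, tlh2 and SPCC777.06c-antisense-1, whose wild-type ED666 levels were given above, were each near their ebp1Δ values in all 3 wild-type libraries. That was not so for every one of the 36 higher antisense RNAs. Wild-type levels of end4-antisense-1 lay nearer to eaf1Δ, and those of cph1-antisense-1 were split.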

How the data were processed

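PolyA RNA-seq libraries were grouped by their labels, and each column of the table was matched to its sample by name. The ebp1Δ columns carry a code found in no label; every other RNA column matched another sample, and the low ebp1 level is the check on that assignment. The authors deposited 1 table whose column headed cpm was treated as a signal: each library is whole reads per gene times 1 constant (100% whole within a tolerance of 0.01). The deposited RPKM values, per the file headers, were used only for levels per length and gene lengths, and 8 RPKM columns of the other sets were not used. Per the submitters' processing notes, the build was ASM294v2, and TopHat2 2.1.1, Bowtie2 2.2.9, SAMtools 1.3.1, edgeR and MACS2 were used by the authors. No source used here gives the counter, the annotation or the use of strand. The reference in hand, ASM294v3, served for names, biotypes, products and gene order (6845 of 7013 identifiers matched); no coordinates or sequences are printed.

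Genes had to reach 1 scaled CPM in 2 or more libraries. The design foresaw normalized values, and the signal was tested as such: limma 3.58.1 in R 4.3.3, with trend and robust off, fitted 7 group means over 17 libraries to log2(scaled CPM + 1), with 10 residual and 2.606 prior degrees of freedom. That scale understates the change of low genes. P-values were adjusted by Benjamini-Hochberg over all 6160 genes, and calls were made at 0.05. Alternatives, including edgeR 4.0.16 and DESeq2 1.42.0 on recovered reads, stand in the closing section. The fits were tested on simulated data. All pairs of replicates differed by more than sampling noise (Pearson's r 0.9905 to 0.9952 across genes). Reads are not independent molecules, so floors and counting intervals cover counting error only. The members, gene lists and tests were chosen with earlier results of these data known. Named genes are the 12 called genes with the largest rise and the 12 with the largest fall whose groups did not overlap, with a mean of at least 5 in the higher group. To these were added ebp1, eaf1 and ell1, and up to 3 called members of each list, or the member with the smallest p where none was called. Also added were those tested of the 3 genes on each side of eaf1 and ebp1, and the markers. Other genes were chosen after their values were seen.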

Additional observations from a re-analysis of the deposited data

How the results depend on the processing

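Higher and lower calls, 145 and 38 as reported, were 238 and 85 in the fit to the 6 deletion libraries alone, 240 and 93 with edgeR and 282 and 105 with DESeq2 on their recovered reads. They were 275 and 127 without wild-type replicate 3, an alternative chosen after seeing the data. The fit to the 9 ED666 libraries gave 112 higher and 19 lower calls, and quantile normalization 132 and 63. Leaving out each of the 6 libraries in turn gave 91 to 124 higher and 12 to 28 lower calls. Of the 183 calls, 149 were also made by the 6-library limma fit and 142 by edgeR on the 6 libraries. Other pseudocounts, filters, scalings and edgeR on 17 libraries kept both counts within 1.5 times; the cause of the shifts was not tested. No named gene changed direction, and 25 of 47 named called genes passed under all 22 alternatives. Rescaling each library to a common total moved the median of all genes to -0.0622. By this the medians of the proteasome (0.042 to -0.013) and purine (0.046 to -0.01) lists changed sign. So did those of the G1/S (0.012 to -0.043) and sterol (0.004 to -0.051) lists, and that of subtelomeric genes went from 0.043 to 0. At the depth of these libraries a gene of under 0.335 to 0.429 scaled CPM cannot be told from 0.

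With the replicate number as a block, 224 genes were higher and 61 lower. Deviations of same-numbered libraries correlated at 0.243, 0.113 and -0.219, and those of differently numbered libraries at -0.303 to 0.272. Deviations from the mean of a group of 3 are not independent, and whether the numbers pair the samples was not tested.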

Other observations

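Several called genes lay side by side in the reference order, a grouping made after their values were seen. Each stretch runs from its first to its last called gene and holds at least 3 of them. Its share of called genes and its median therefore follow in part from how it was drawn. Of all genes tested, 2.97% were called. On chromosome I the noncoding RNAs SPNCRNA.779, SPNCRNA.780, SPNCRNA.781 and SPNCRNA.782 and the gene hsr1 were all higher in eaf1Δ, 5 called of 7 tested in the stretch, with a median log2 difference of 1.1; the calls of SPNCRNA.781 and hsr1 were lost when any of 4 of the 6 libraries was taken out alone. SPNCRNA.782 was at 5.58, 3.24 and 3.15 scaled CPM in eaf1Δ, at 0.492, 0.405 and 0.571 in ebp1Δ and at 6.83, 8.77 and 7.48 in wild type. Near an end of chromosome II, 7 of 9 tested genes from aes1 to SPBPB10D8.03 were called, all higher, with a median of 1.4, although the call of aes1 was lost without any 1 of the 6 libraries. They include the asparaginase gene SPBPB21E7.09, at 32.2, 38.8 and 37.2 against 17.3, 18.2 and 19.6. In the stretch of cnp3, SPNCRNA.1673 and abp2, 3 of 4 tested genes were called, with a median of 1.47. In that of SPNCRNA.1088, SPNCRNA.1089 and SPAC922.04 all 3 tested genes were called higher, with a median of 0.76. The calls of both RNAs were lost when any of 5 of the 6 libraries was taken out alone. The stretch of prl61, SPAC186.08c and SPAC750.01 was mixed. Of its 3 called genes 2 were higher, and of its 4 tested genes 2 had positive differences, with a median of 0.15.

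Next to ght5, SPCC1235.18 was called lower in eaf1Δ at 0.418, 0.223 and 0.337 against 1.11, 0.944 and 1.14, a call lost when any of 4 libraries was taken out alone, while dga1 on the other side was at a log2 difference of 0.08. The stress-list gene mug14 had the pattern of ght5 over the 9 libraries, at 16.6, 16.4 and 16.2 in eaf1Δ, 81.6, 73.5 and 78.4 in ebp1Δ and 14.0, 11.7 and 206 in wild type, but was not called (limma adjusted p = 0.177). Among genes lower in ebp1Δ than elsewhere, the malate transporter gene mae1 was at 584, 629 and 517 in eaf1Δ, 391, 329 and 399 in ebp1Δ and 787, 834 and 599 in wild type, a call lost without eaf1Δ replicate 2. The adenine deaminase gene dea2 was at 166, 150 and 138 against 101, 95.3 and 92.7, with 216, 211 and 173 in wild type. The retrotransposon gene Tf2-7 was at 10.6, 11.3 and 12 in eaf1Δ against 5.54, 6.61 and 5.71 in ebp1Δ, with 5.62, 7.88 and 6.35 in wild type; it has near-identical copies, and its call was lost when any of 4 libraries was taken out alone.

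The 32 reads of ura4 in eaf1Δ replicate 3 stand against 0 in the other 8 ED666 libraries.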
